A study of Mus musculus with 2 samples.

Results

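The genes described here are the MHC class I presentation genes of GL261, a transplantable mouse glioma cell line, followed in cells grown attached to plastic and in cells grown as floating spheres. They were chosen by symbol and number 10 of the 32285 genes counted, namely the heavy chains H2-K1 and H2-D1, the light chain B2m, the transporter and loading genes Tap1, Tap2 and Tapbp, the immunoproteasome subunits Psmb8, Psmb9 and Psmb10, and the transcriptional activator Nlrc5. Both cultures carried the C57BL/6 background and were grown in DMEM with 10% serum. Neurosphere cells were kept for 12 days in that medium to which Epidermal Growth Factor and Fibroblast Growth Factor (20 ng/mL each) and B-27 had been added, and the adherent cells had none of these supplements. Adherent cells were detached with trypsin, spheres were broken up by trituration after a trypsin step that the GEO labels give and the study's methods do not, and both were frozen and sequenced as 1 library per culture by the 10x Genomics 3' protocol, so both groups come from a single line and no difference between them has a replicate check.

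MHC class I molecules display short peptides from a cell's own proteins to CD8 T cells. The peptides are cut by the proteasome, moved into the endoplasmic reticulum by the TAP transporter and loaded onto a heavy chain paired with beta-2 microglobulin, with tapasin bridging TAP and the empty heavy chain. Interferons raise most of these genes together and bring in the immunoproteasome subunits, which replace the constitutive catalytic subunits of the proteasome core, and low class I display is a known feature of many tumors, gliomas among them.

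After the cell filters, 5051 adherent cells with 46290996 unique molecular identifiers (UMIs, each standing for 1 captured mRNA molecule) and 4276 neurosphere cells with 64943938 UMIs remained, with medians of 8260 and 13198.5 UMIs per cell. The called cells of the libraries shared 12 barcodes. Levels are given as counts per 1000000 UMIs (CPM) after mitochondrial and ribosomal genes were taken out, and all intervals are 95% intervals that cover counting error only. The label of astrocytoma was checked against 8 astrocyte and glioma markers, of which 7 had at least 50 UMIs. Of these, Vim (5583 CPM in the adherent and 1763 CPM in the neurosphere library) and Slc1a3 (370 and 80.5 CPM) were over 2-fold lower in neurosphere cells and 5 were within 2-fold, up to Nes at 104 and 201 CPM. Low counts were not general to the list, whose sum was 6431 CPM in the adherent and 2485 CPM in the neurosphere library, most of it Vim. Gfap had 30 UMIs in the adherent and 27 UMIs in the neurosphere library, and Aqp4 had none in either. Of 10 immune cell markers, 3 were at 0 in each library, Ptprc had 1 UMI in adherent and 0 in neurosphere cells, and the summed level of the list was 11.6 CPM in the adherent and 5.50 CPM in the neurosphere library, most of it Cd68.

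Of the 10 genes, 7 lie on chromosome 17 in the GENCODE annotation of GRCm38, within 1351601 bases from Tapbp to H2-D1. Psmb9 (chr17:34181987-34187764, minus strand), Tap1 (chr17:34187553-34197225, plus strand), Psmb8 (chr17:34197721-34201454, plus strand) and Tap2 (chr17:34203527-34216321, plus strand) sit side by side in 34335 bases. Tapbp (chr17:33915899-33929292, plus strand) and H2-K1 (chr17:33996017-34000347, minus strand) lie before them and H2-D1 (chr17:35262730-35267499, plus strand) after them. B2m is on chromosome 2 (chr2:122147686-122153083, plus strand), and Psmb10 (chr8:105935735-105938444, minus strand) and Nlrc5 (chr8:94434356-94527272, plus strand) are on chromosome 8. Psmb9 and Tap1 overlap head to head by 212 bases on opposite strands, B2m lies inside Patl2 on the other strand, and Tapbp overlaps Zbtb22 on its own strand over 3422 bases. H2-K1 and H2-D1 are close relatives, but none of the 411 words of 90 bases in the last 500 bases of either transcript occurred in a transcript of another gene. The same held for the other 8 genes, so exact matches at the 3' end were unique to each, although words that differ by a few bases were not compared.

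RefSeq windows of 250 bases before and 50 bases after a start site (GRCm38.p6) matched 8 of the 10 genes. The windows of H2-K1 and B2m are shown because they carry the elements that class I genes are known to share. In these lines, capitals mark an NF-kB element (GGGGATTCC), an interferon regulatory factor element (AANNGAAA), the core of a cyclic AMP element (TGACG, part of the X box through which NLRC5 and the RFX complex are recruited) and an NF-Y element (CCAAT), each searched on both strands. The H2-K1 line is chr17:34000348-34000597 read on the minus strand, and the B2m line is chr2:122147437-122147685 on the plus strand.
H2-K1: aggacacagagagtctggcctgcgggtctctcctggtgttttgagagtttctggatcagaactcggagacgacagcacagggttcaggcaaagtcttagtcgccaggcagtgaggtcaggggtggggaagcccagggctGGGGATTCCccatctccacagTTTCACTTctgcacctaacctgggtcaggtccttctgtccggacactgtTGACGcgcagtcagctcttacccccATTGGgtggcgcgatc
B2m: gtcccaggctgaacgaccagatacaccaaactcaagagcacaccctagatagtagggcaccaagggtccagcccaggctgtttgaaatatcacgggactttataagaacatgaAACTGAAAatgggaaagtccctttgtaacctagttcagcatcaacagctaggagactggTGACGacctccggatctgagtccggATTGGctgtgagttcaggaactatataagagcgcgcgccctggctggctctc

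The interferon regulatory factor element was found in the windows of H2-K1, H2-D1 and B2m, and in 23.9% of all 32851 windows. The NF-kB element was found for H2-K1 and H2-D1 and in 0.250% of all windows, the cyclic AMP core for H2-K1, H2-D1, B2m, Tap1 and Psmb9 and in 20.8% of all windows, and the NF-Y element for those genes and Tapbp and in 37.4% of all windows. A STAT element (TTCNNNGAA) was found in the Psmb8 window and in 8.30% of all windows. The heavy chains H2-K1 and H2-D1, whose levels went in opposite directions between the cultures, are set side by side over the 30 bases that hold the NF-kB and interferon elements (chr17:34000429-34000458, minus strand, and chr17:35262923-35262952, plus strand), where 29 of 30 bases were identical.
H2-K1: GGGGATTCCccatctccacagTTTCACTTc
H2-D1: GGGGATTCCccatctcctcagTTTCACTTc

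Aligned at that element without gaps, the windows of both genes were identical at 166 of 190 bases upstream of the starts, or 87.4%. Further down, H2-K1, H2-D1 and B2m each hold the cyclic AMP core and a reversed NF-Y element with exactly 20 bases between them, an arrangement found in 31 of the 32851 windows (0.0944%), H2-M3 among them. The stretches are shown for this spacing and lie at chr17:34000359-34000388 on the minus strand, chr17:35262993-35263022 on the plus strand and chr2:122147609-122147638 on the plus strand.
H2-K1: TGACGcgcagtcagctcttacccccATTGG
H2-D1: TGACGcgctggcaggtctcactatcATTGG
B2m: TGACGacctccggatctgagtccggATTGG

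Tap1 and Psmb9 are read in opposite directions from RefSeq start sites 225 bases apart, and their windows share 275 bases. The stretch chr17:34187458-34187487 on the plus strand holds the cyclic AMP core that both windows contain. It is shown because it lies between the RefSeq starts of a gene that was lower in neurosphere cells (Psmb9) and one that was level (Tap1). By the GENCODE coordinates, where the genes overlap, the stretch lies inside Psmb9.
Tap1 and Psmb9: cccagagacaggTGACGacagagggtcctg

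A match is a description of these letters and no evidence that a factor binds there.

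The class I genes did not move as a block between the cultures. The immunoproteasome subunits Psmb8, Psmb9 and Psmb10 were over 2-fold lower in neurosphere than in adherent cells, H2-D1, B2m and Nlrc5 were lower by less than that, Tap1 differed by less than its counting interval, and Tap2, H2-K1 and Tapbp were higher by less than 2-fold. Of the 10 genes, 0 were more than 2-fold higher and 3 were more than 2-fold lower in neurosphere cells. Of all 14654 genes that held 50 UMIs or more in both libraries together, 21.7% were more than 2-fold higher and 11.7% were more than 2-fold lower. The median log2 ratio of neurosphere to adherent CPM was -0.41 over the 10 genes and 0.32 over the 14654 genes, so 7 of the 10 lay below the median of all genes. Summed, the 10 genes held 1593 CPM in the adherent and 1202 CPM in the neurosphere library, a log2 ratio of -0.41 (interval -0.42 to -0.39). B2m made up most of each sum, with 918 CPM in the adherent and 674 CPM in the neurosphere library.

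**Figure D1:**
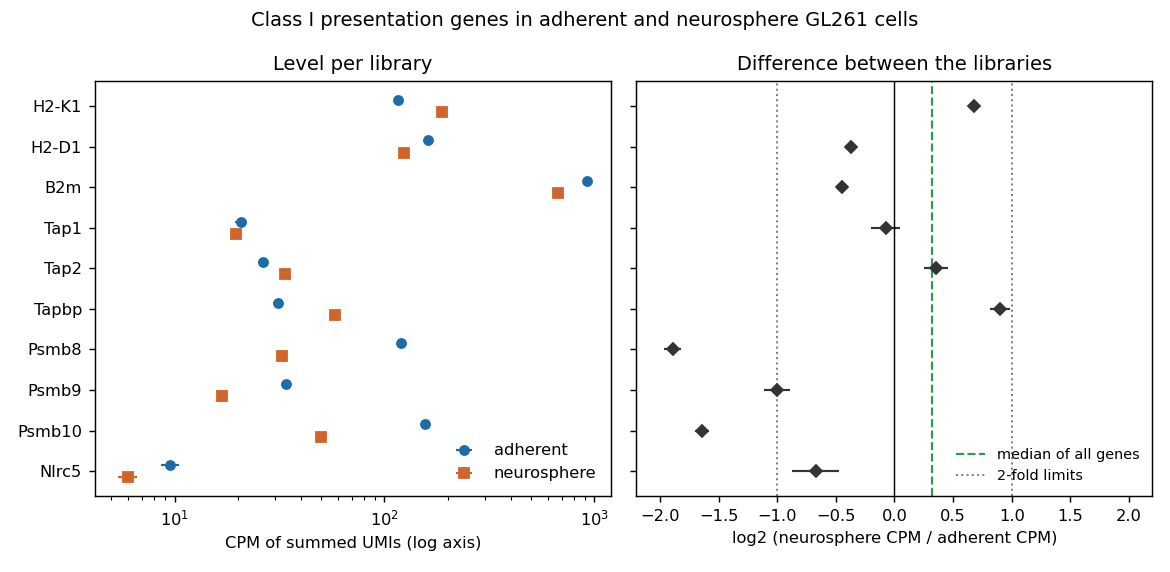
The left panel gives the level of each gene in CPM (log axis) in adherent (circles) and neurosphere (squares) cells with 95% Poisson intervals, and the right panel the log2 ratio of neurosphere to adherent CPM with 95% conditional intervals, the median of all genes as a dashed line and 2-fold limits as dotted lines. Psmb8 at -1.89 and Psmb10 at -1.64 lie beyond the lower limit, Psmb9 on it at -1.002, and H2-K1 at 0.68 and Tapbp at 0.90 approach the upper limit.

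The heavy chains went in opposite directions. H2-K1, the K locus heavy chain, had 5396 UMIs (117 CPM) in the adherent and 12146 UMIs (187 CPM) in the neurosphere library, a log2 ratio of 0.68 (interval 0.64 to 0.73). H2-D1, the D locus heavy chain, had 7439 UMIs (161 CPM) in the adherent and 8056 UMIs (124 CPM) in the neurosphere library, a log2 ratio of -0.37 (interval -0.42 to -0.33). Within each library, which needs no scaling between the libraries, H2-K1 made up 42.04% of H2-K1 and H2-D1 UMIs in adherent cells (interval 41.2 to 42.9%) and 60.1% in neurosphere cells (interval 59.4 to 60.8%). H2-D1 was thus the more frequently counted heavy chain in adherent cells and H2-K1 in neurosphere cells. Over the 10 alternatives, the log2 ratio of H2-K1 lay between 0.057, in the setting that kept mostly shallow adherent cells and whose interval holds 0, and 1.29, and that of H2-D1 between -1.11 and -0.15. As the 2 genes are close in sequence, reads that match both could be split or dropped in counting, and the shares are uncertain to that extent. B2m, the invariant light chain without which heavy chains are not displayed, had 42479 UMIs (918 CPM) in the adherent and 43764 UMIs (674 CPM) in the neurosphere library, a log2 ratio of -0.45 (interval -0.46 to -0.43).

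The transporter and loading genes were level or higher in neurosphere cells. Tap1, one subunit of the peptide transporter, had 960 UMIs (20.7 CPM) in the adherent and 1278 UMIs (19.7 CPM) in the neurosphere library, and its log2 ratio of -0.08 had an interval of -0.20 to 0.05 that holds 0. Tap2, the partner subunit, had 1224 UMIs (26.4 CPM) in the adherent and 2191 UMIs (33.7 CPM) in the neurosphere library, a log2 ratio of 0.35 (interval 0.25 to 0.45) that lies close to the median of all genes. Tapbp, which encodes tapasin, had 1441 UMIs (31.1 CPM) in the adherent and 3772 UMIs (58.1 CPM) in the neurosphere library, a log2 ratio of 0.90 (interval 0.81 to 0.99), the highest of the 10 genes. The direction of Tap1 depended on the scaling, since its log2 ratio was 0.14 with the mitochondrial and ribosomal UMIs counted in the total, a scaling that moved the median of all genes to 0.54. Over all 10 alternatives the log2 ratio of Tap1 lay between -0.79 and 0.49. That of Tap2 lay between -0.84 and 0.57, and that of Tapbp between -0.072 and 1.12. The low ends of Tap2 and Tapbp came from the setting that kept mostly shallow adherent cells. Among cells deep enough to be drawn down to 5000 UMIs that then held under 3 UMIs of a list of interferon-induced genes, which were 50 adherent and 2068 neurosphere cells, the log2 ratio of Tap2 was -0.062 (interval -0.996 to 1.07) and that of Tapbp 1.11 (interval 0.13 to 2.33).

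The immunoproteasome subunits were the genes that differed most. Psmb8, which takes the place of Psmb5 in the proteasome core, had 5575 UMIs (120.4 CPM) in the adherent and 2112 UMIs (32.5 CPM) in the neurosphere library, a log2 ratio of -1.89 (interval -1.96 to -1.82). Psmb10, which takes the place of Psmb7, had 7205 UMIs (156 CPM) in the adherent and 3247 UMIs (50.0 CPM) in the neurosphere library, a log2 ratio of -1.64 (interval -1.70 to -1.58). Psmb9, which takes the place of Psmb6, had 1563 UMIs (33.8 CPM) in the adherent and 1095 UMIs (16.9 CPM) in the neurosphere library, and its log2 ratio of -1.002 (interval -1.11 to -0.89) lay just past the 2-fold limit, so it moved to the other side of it under several other settings.

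The constitutive partners were lower in neurosphere cells as well, by less. Summed over Psmb5, Psmb6 and Psmb7, the level was 1437 CPM in the adherent and 780.8 CPM in the neurosphere library (log2 ratio -0.88), against 309.8 and 99.4 CPM for the immunoproteasome subunits (log2 ratio -1.64). The share of each immunoproteasome subunit among the UMIs of its pair was therefore taken within each library. Psmb8 made up 19.5% of Psmb8 and Psmb5 UMIs in adherent cells (interval 19.05 to 19.97%) and 10.8% in neurosphere cells (interval 10.3 to 11.2%). Psmb10 made up 35.5% of Psmb10 and Psmb7 UMIs in adherent cells (interval 34.9 to 36.2%) and 28.4% in neurosphere cells (interval 27.5 to 29.2%). Psmb9 made up 4.89% of Psmb9 and Psmb6 UMIs in adherent cells (interval 4.65 to 5.13%) and 4.20% in neurosphere cells (interval 3.96 to 4.45%). All 3 shares were lower in neurosphere cells with intervals that did not overlap, and the gap was widest for Psmb8 and narrowest for Psmb9, whose order turned with thinned cells (4.63% in adherent and 5.26% in neurosphere cells). They are shares of mRNA counts and say nothing of how the proteins are assembled.

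Nlrc5, the activator that is recruited to class I promoters, was counted least often, with 441 UMIs (9.53 CPM) in the adherent and 388 UMIs (5.97 CPM) in the neurosphere library and a log2 ratio of -0.67 (interval -0.87 to -0.47). Over the 10 alternatives it lay between -2.53, where most adherent cells kept were shallow, and -0.30 with thinned cells, where the interval reaches 0. Of adherent cells 8.0%, and of neurosphere cells 7.8%, held a UMI of it.

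Shares of cells with a UMI depend on the depth of a library as well as on the level, so every cell was in addition drawn down to 5000 UMIs, which left 4464 adherent and 4196 neurosphere cells. No cell type in these libraries should lack the genes, so the UMIs that free RNA adds to a cell could not be measured. H2-K1 was found in 57.8% of adherent cells and 78.9% of neurosphere cells before this thinning and in 42.4% and 52.4% after it. H2-D1 was found in 70.4% and 70.6%, and in 51.9% and 42.9% after thinning, so that the shares were close at unequal depth and apart at equal depth. B2m was found in 98.9% and 99.4%, and in 98.0% and 93.4% after thinning. Psmb8 was found in 52.6% and 27.5%, and in 38.1% and 13.9% after thinning. Psmb10 was found in 66.9% and 43.9%, and in 51.5% and 20.9% after thinning. The remaining genes were found in fewer than 27.0% of thinned cells of either culture, with Tapbp at 14.3% and 26.7% and Nlrc5 at 4.3% and 3.5%.

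H2-K1, H2-D1 and B2m were spread less evenly over neurosphere cells. For H2-K1 in thinned cells, the variance of UMIs over cells was 1.24 times the mean in adherent and 2.17 times the mean in neurosphere cells, where random counting alone gives 1. The same ratio was 1.28 and 1.68 for H2-D1, and 1.46 and 1.93 for B2m. The share of cells without any B2m UMI was 1.99% in adherent cells and 6.65% in neurosphere cells, against 0.934% and 2.63% that random counting around the mean would leave. For Psmb8, the ratio of 1.46 in adherent and 1.47 in neurosphere cells was alike although its mean was lower in neurosphere cells.

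The interferon list held 20 genes present in the files, among them Isg15, Ifit1, Ifit3, Rsad2 and Cxcl10, and none of the 10 class I genes. Its summed level was 3921 CPM in the adherent and 920.3 CPM in the neurosphere library (log2 ratio -2.09), the direction of the immunoproteasome subunits, and its part in their difference between the cultures was not tested. The median thinned cell held 16 UMIs of it in adherent and 3 UMIs in neurosphere cells. The class I genes were therefore compared among cells grouped by list UMIs, in classes chosen after the spread of the list over cells had been seen. The classes of 0 to 4, 5 to 9, 10 to 19, 20 to 39 and 40 or more list UMIs held 175, 725, 1947, 1288 and 329 adherent cells and 2836, 825, 396, 100 and 39 neurosphere cells. Within the lowest class the cultures were not alike, since 50 of its adherent and 2068 of its neurosphere cells held under 3 list UMIs.

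The shares of Psmb8 and Psmb10, lower in neurosphere cells as a whole, were higher there in the upper classes, and the share of Psmb9 was higher there in the 4 upper classes, with overlapping intervals in the lowest. In cells with 0 to 4 list UMIs, Psmb8 made up 11.7% of its pair in adherent (interval 8.89 to 15.02%) and 6.68% in neurosphere cells (interval 5.92 to 7.50%). In cells with 20 to 39 list UMIs, it made up 21.1% in adherent (interval 19.9 to 22.4%) and 39.9% in neurosphere cells (interval 33.4 to 46.7%). In cells with 40 or more, it made up 27.7% in adherent (interval 25.2 to 30.4%) and 53.3% in neurosphere cells (interval 42.6 to 63.7%). The partner differed between the cultures, since Psmb5 was at 507 CPM in the adherent and 220.5 CPM in the neurosphere cells of that class, where Psmb8 was at 194.5 CPM (interval 173.8 to 217 CPM) and 251 CPM (interval 186 to 332 CPM). In the class of 10 to 19 the Psmb8 share was higher in neurosphere cells (17.7% in adherent and 23.1% in neurosphere cells) while its level was lower (106 and 78.3 CPM). By level, Psmb9 was at 18.3 and 14.2 CPM in the lowest class and at 44.98 and 144 CPM in the highest. By share, Psmb9 was at 2.68% (interval 1.54 to 4.32%) and 3.62% (interval 3.14 to 4.14%) in the lowest class and at 6.28% and 28.3% in the highest, and Psmb10 was at 29.8% and 25.4% in the lowest class and at 41.95% and 61.7% in the highest, adherent before neurosphere cells. The share of H2-K1 among H2-K1 and H2-D1 UMIs behaved otherwise. It stayed between 37.5% and 46.6% in the 5 adherent classes and between 57.1% and 60.5% in the 5 neurosphere classes, so the difference in heavy chain makeup was present at every class.

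**Figure D2:**
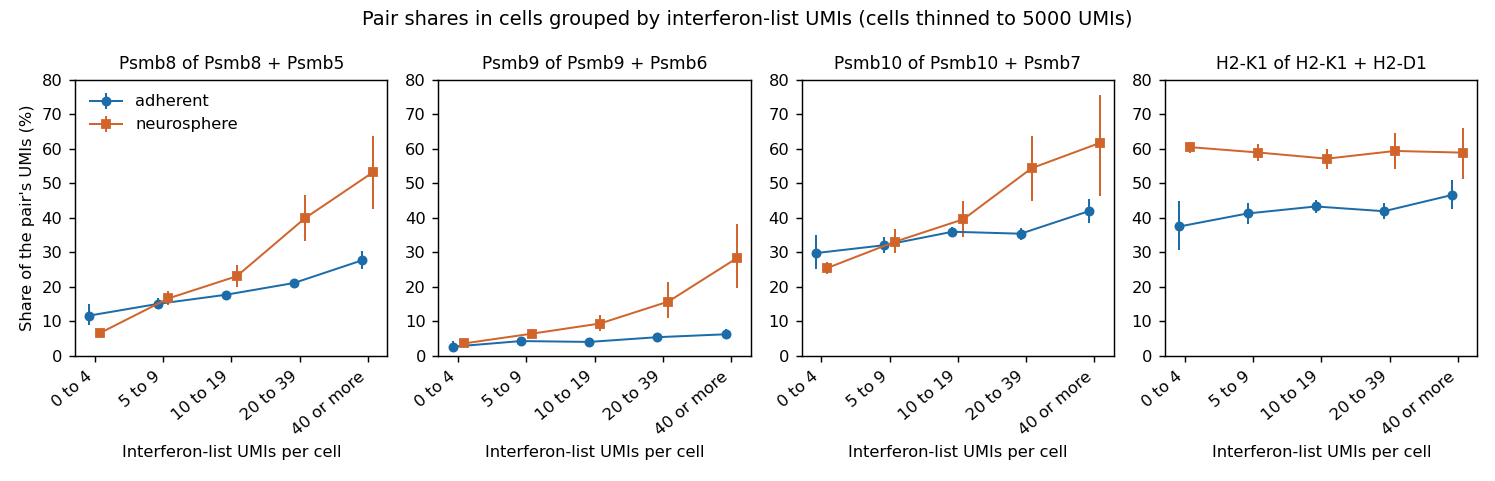
Each panel plots the share of a gene among the UMIs of a pair (percent) against the class of interferon-list UMIs per cell, for adherent (circles) and neurosphere (squares) cells thinned to 5000 UMIs, with 95% binomial intervals. The immunoproteasome shares are higher in the highest than in the lowest class, with the wider span in neurosphere cells, Psmb8 from 6.68% to 53.3%, while the H2-K1 share stays near 60% in neurosphere and near 40% in adherent cells.

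By level, H2-K1 was at 82.3 CPM in the lowest and 160.5 CPM in the highest adherent class, and at 160.8 CPM and 543.6 CPM in the neurosphere classes. H2-D1 was at 137 CPM and 184 CPM in the adherent and at 105 CPM and 379.5 CPM in the neurosphere classes. B2m was at 849 CPM and 1061 CPM in the adherent and at 627 CPM and 1656 CPM in the neurosphere classes. In the classes of 10 or more list UMIs, H2-K1, H2-D1 and B2m were each higher in neurosphere than in adherent cells. Psmb10 was lower in neurosphere cells in all 5 classes, with 214 CPM in the adherent and 149 CPM in the neurosphere library of the highest class. Tapbp was higher in neurosphere cells in all 5 classes, at 52.1 CPM against 21.7 CPM in the lowest class, where the adherent value rests on 19 UMIs.

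Ranked by list UMIs within each library, the top 25% of cells held more of the class I genes than the bottom 25%, by a wider margin in neurosphere cells. In neurosphere cells, the log2 ratio of the top 25% to the bottom 25% was 3.11 for Psmb8, 2.12 for Nlrc5, 2.05 for Psmb9, 1.92 for Tap2, 1.72 for Tap1, 1.39 for H2-D1, 1.23 for Tapbp, 1.21 for H2-K1, 0.94 for Psmb10 and 0.89 for B2m. In adherent cells, the same ratio lay between -0.04 for Tap2 and 0.94 for Psmb8, and it was 0.29 for H2-K1, 0.09 for H2-D1 and 0.20 for B2m. Intervals held 0 for H2-D1, Tap2, Tapbp and Nlrc5 in adherent cells and for none of the 10 genes in neurosphere cells. With Isg15 left out of the list, the adherent ratios of H2-D1 (0.21, interval 0.08 to 0.35) and Nlrc5 (0.84, interval 0.26 to 1.45) lay above 0. The constitutive subunits Psmb5, Psmb6 and Psmb7 had ratios of 0.07 to 0.10 in adherent and -0.27 to 0.01 in neurosphere cells. These end groups did not span the same range of the list, since their median cells held 8 and 31.5 list UMIs in adherent cells and the top neurosphere cells had a median of 10.

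Cells were also ranked by 19 genes of the G2/M phase, during which cells prepare for and pass through mitosis. The summed class I genes were nearly level in adherent cells, with a log2 ratio of the top 25% to the bottom 25% of -0.07 (interval -0.11 to -0.03), and lower in the top 25% of neurosphere cells, with -0.65 (interval -0.70 to -0.60). In neurosphere cells, Tap2 had a ratio of -1.26, Tapbp -0.88, H2-D1 -0.78, B2m -0.62 and H2-K1 -0.59, and all 10 values were below 0, the interval of Nlrc5 alone reaching 0. In adherent cells, Tap2 had -0.67, Psmb9 -0.45, H2-D1 -0.20, Psmb8 -0.17 and Tap1 0.43, each with an interval without 0. Intervals of the other genes held 0, with H2-K1 at 0.00 and B2m at -0.02. Psmb5, Psmb6 and Psmb7 were higher in the top 25% of neurosphere cells, with ratios of 0.33 to 0.44. The same ranking by 16 S phase genes gave -0.11 in adherent and -0.66 in neurosphere cells for the summed class I genes. Isg15 was also lower in the top G2/M cells of the neurosphere library (-0.57) and higher in those of the adherent library (0.26). Cxcl10, of the same list, was higher in the top cells of both, at 1.25 in neurosphere and 0.16 in adherent cells. How far the interferon list and the cell cycle move the class I genes apart from each other was not tested.

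**Figure D3:**
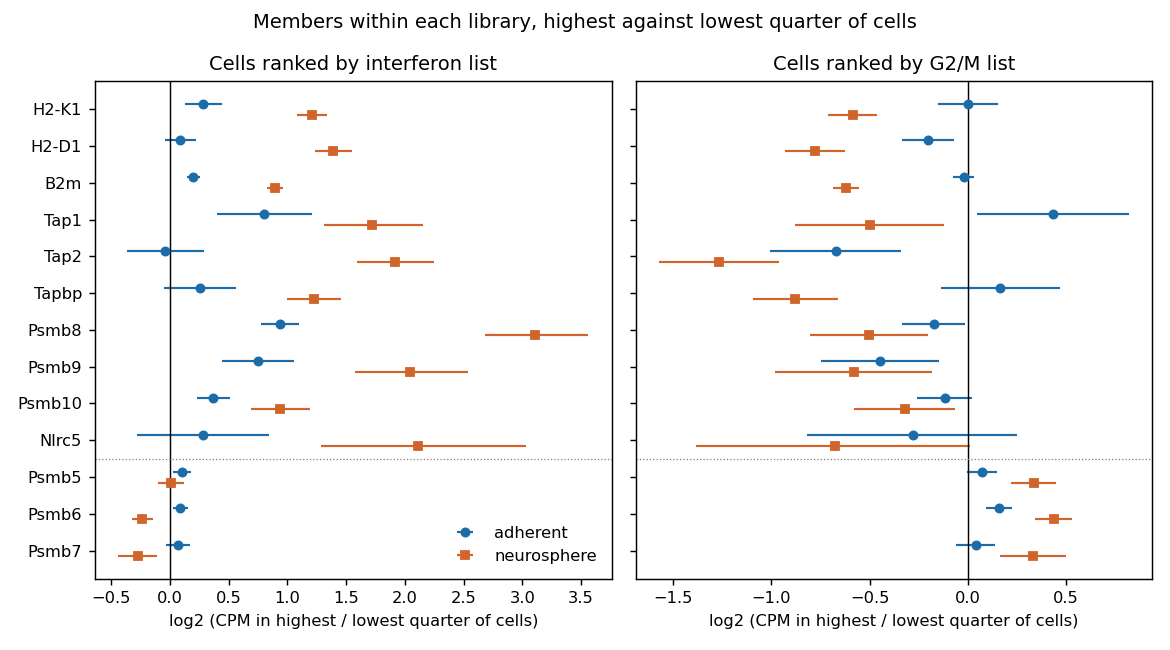
The log2 ratio of CPM in the top 25% to the bottom 25% of cells is plotted for each gene, with cells ranked by interferon-list UMIs (left) or G2/M-list UMIs (right), for adherent (circles) and neurosphere (squares) cells with 95% intervals, and with the constitutive subunits below the dotted line. By the interferon list, neurosphere values of the 10 genes reach from 0.89 to 3.11. By the G2/M list they lie below 0, while adherent values lie between -0.67 for Tap2 and 0.43 for Tap1.

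Each library was divided into 10 clusters by expression of its 2000 most variable genes. The class I genes were not kept out of these, so their levels by cluster are a description. Which of them were among the 2000 was not recorded. In neurosphere cells, cluster 4 (447 cells, led by Chit1, Cyp4f18, Spp1, Iigp1 and Wfdc3) and cluster 9 (75 cells, led by Cxcl2, Nppb, Ccl2, Cox6a2 and Ostn) stood highest for the interferon list, at 2521 and 2678 CPM, with the other 8 clusters between 460.3 and 1239 CPM. The same clusters held the most H2-K1, 395 CPM in cluster 4 and 446 CPM in cluster 9, against 128 CPM in cluster 7, a cluster led by histone genes. H2-D1 was at 263 CPM in cluster 4, 382 CPM in cluster 9 and 82.0 CPM in cluster 7. Tap2 was at 83.3 CPM in cluster 4, 75.7 CPM in cluster 9 and 18.04 CPM in cluster 7. Psmb8 made up 27.2% of its pair in cluster 4 and 26.7% in cluster 9, and 5.52% to 13.4% in the other clusters.

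H2-K1 differed less between adherent clusters. It ranged from 99.1 to 139 CPM over the 10 adherent clusters, and from 128 to 446 CPM over the 10 neurosphere clusters. Cluster 8 (205 cells, led by Egflam, Tssc4, Shisa8, Ifi206 and Vcan) held the most immunoproteasome subunits, 449 CPM in sum, and cluster 4 the fewest of the larger clusters, 249.4 CPM. The smallest cluster, 9, with 48 cells and a median of 2623.5 UMIs, was low in B2m at 468 CPM. With it, the highest adherent cluster stood 7.05 times above the lowest for Psmb8 and 2.19 times for B2m, against 5.97 and 2.04 times over the neurosphere clusters. The H2-K1 share among H2-K1 and H2-D1 UMIs lay between 38.8% and 45.1% in adherent clusters 0 to 8 and between 53.9% and 62.5% in the neurosphere clusters. Adherent cluster 9 was the exception at 59.3%, a share of 27 UMIs.

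**Figure D4:**
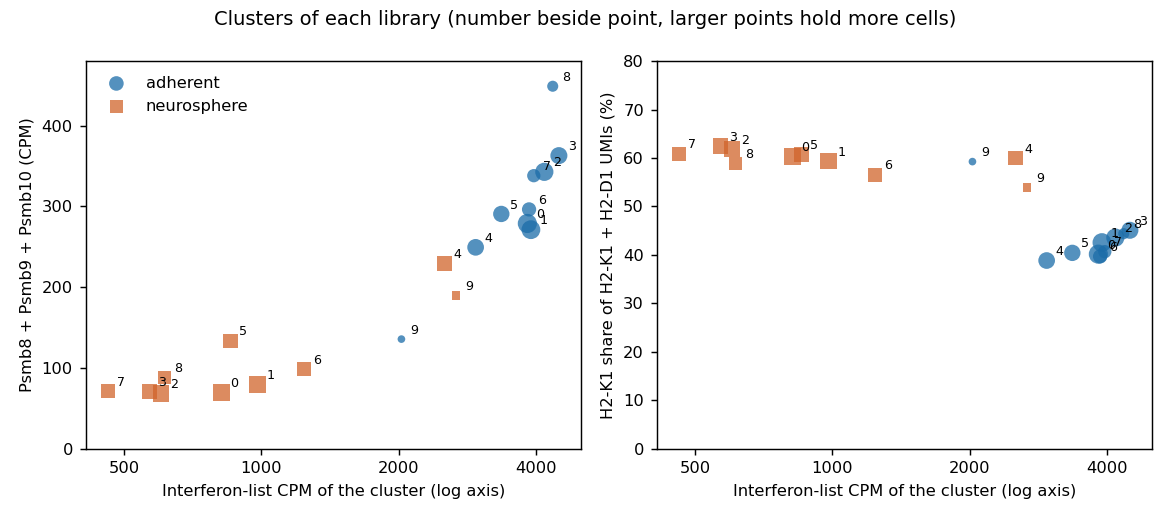
Each point is a cluster of adherent (circles) or neurosphere (squares) cells, placed by its interferon-list CPM (log axis) against the summed CPM of Psmb8, Psmb9 and Psmb10 (left) or the H2-K1 share of H2-K1 and H2-D1 UMIs in percent (right). Neurosphere clusters 4 and 9 stand apart from the other neurosphere clusters on the left, and on the right the cultures stay apart, with adherent cluster 9 (48 cells) among the neurosphere values.

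Within cells, the class I genes went together more in neurosphere than in adherent cells, as far as sparse counts show. Over the 45 pairs of genes, Pearson's r of log-normalized values had a median of 0.027 in 4464 adherent and 0.104 in 4196 neurosphere cells, where all cells of a library share its preparation and were set to 1 depth. The pair with the highest r in both cultures was H2-K1 and H2-D1, with 0.138 in adherent and 0.326 in neurosphere cells. In neurosphere cells, H2-D1 was at 186 CPM in the 2199 cells with a UMI of H2-K1 and at 85.0 CPM in the 1997 cells without one, and in adherent cells at 192 CPM and 143 CPM. Psmb9 was at 48.6 CPM in neurosphere cells with a UMI of Psmb8 and at 15.7 CPM in those without, and at 42.04 CPM and 26.1 CPM in adherent cells. Over the 45 pairs, r lay between -0.014 and 0.138 in adherent cells and between 0.029 and 0.326 in neurosphere cells. The next highest in neurosphere cells were B2m with H2-K1 (0.252) and B2m with H2-D1 (0.246). The remaining values are not read further.

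Genes were also ranked by Pearson's r with the summed class I genes over thinned cells, among 7955 genes in adherent cells. The 5 highest in adherent cells were Ifitm3 (0.204), Bst2 (0.187), Cd9 (0.167), Fth1 (0.136) and Gabarap (0.136). The 5 highest in neurosphere cells were Bst2 (0.373), Ifitm3 (0.368), Isg15 (0.360), Ptgds (0.306) and Gpnmb (0.292). Bst2, or tetherin, and Ifitm3 are membrane proteins known to be induced by interferon. As B2m made up most of the sum, the parts were ranked as well. For the immunoproteasome subunits, Ckb (0.172) was highest in adherent and Ifitm3 (0.289) in neurosphere cells. For the heavy chains, Cd9 (0.108) was highest in adherent and Bst2 (0.297) in neurosphere cells. Ifitm3, Bst2, Cd9, Gabarap, Ifit3, Npc2, Cryab, Gpnmb, Isg15, Ifi27l2a, Itm2b, Xaf1 and Selenom, 13 genes, were among the first 50 of both cultures.

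The other genes of the pathway were taken by list. Of 7 further heavy chain genes with at least 50 UMIs, 1 lay past 2-fold upward in neurosphere cells and 2 downward. Among all 14654 genes with that many UMIs, 21.7% lay past it upward and 11.7% downward. These shares are the reference for the lists that follow as well. Whether a list this short departs from them was not tested. H2-T23, the nonclassical heavy chain Qa-1 that presents leader peptides of classical class I chains to NKG2A, had 2524 UMIs (54.5 CPM) in the adherent and 400 UMIs (6.16 CPM) in the neurosphere library, a log2 ratio of -3.15 (interval -3.30 to -2.99) that is larger than that of any of the 10 genes. Mr1, which presents vitamin B metabolites, was at 3.65 and 1.12 CPM, and Cd1d1, which presents lipids, at 1.43 and 2.91 CPM. H2-T22 held the most UMIs of that list, with 65.4 CPM in the adherent and 42.2 CPM in the neurosphere library.

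Of the 6 loading chaperones, 0 were past 2-fold in either direction, with Hsp90b1 the most counted at 1302 and 1123 CPM. Of the 8 peptidases, Erap1, which trims peptides in the endoplasmic reticulum, was over 2-fold higher at 6.09 CPM in the adherent and 15.7 CPM in the neurosphere library, and Lap3 held the most UMIs at 245 and 193 CPM. Of the 3 constitutive catalytic subunits, Psmb7 was over 2-fold lower (log2 ratio -1.16), and Psmb6 held the most UMIs. Of the 12 other genes of the proteasome core and its assembly, Psma7 was over 2-fold lower (log2 ratio -1.37) and Psmb3 held the most UMIs. Of the 4 proteasome activators, Psme1, a subunit of the interferon-inducible activator PA28, was over 2-fold lower at 176 and 79.3 CPM, and its partner Psme2, the most counted of them, lay at the limit with 349 and 175 CPM (log2 ratio -0.997).

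Of 16 genes known to transcribe class I genes, Nfyc, a subunit of NF-Y, was over 2-fold higher in neurosphere cells at 30.2 and 82.7 CPM, and Rfxap, part of the RFX complex, held the most UMIs at 88.8 and 120.3 CPM. Of 11 genes of interferon reception and its brakes, Ifngr1, a chain of the interferon gamma receptor, was over 2-fold higher at 16.8 CPM in the adherent and 65.3 CPM in the neurosphere library (log2 ratio 1.96), and Ptpn2 held the most UMIs at 109.7 and 100.7 CPM. The 4 genes of PRC2, a complex that can silence class I genes, were within 2-fold, with Ezh2 the most counted at 177 and 320.1 CPM. None of the 4 interferon ligand genes reached 50 UMIs, with Ifnb1 at 23 UMIs in adherent and 2 UMIs in neurosphere cells and Ifng at 0 in both. Of 5 MHC class II genes with at least 50 UMIs, Cd74 (4.73 and 0.908 CPM) and H2-Aa (1.25 and 0.246 CPM) were over 2-fold lower in neurosphere cells, and H2-DMa held the most UMIs at 42.6 and 41.6 CPM. Of the 20 interferon-list genes, 16 were over 2-fold lower and 0 over 2-fold higher in neurosphere cells, against 11.7% and 21.7% of all genes. Isg15 held the most UMIs of them, at 1928 and 354 CPM.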

How the data were processed

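The authors deposited, for each culture, the raw UMI count per gene and called cell as Cell Ranger 7.0.1 wrote it (build mm10 per the submitters' processing notes), without normalization or cell filters. Whether reads in introns were counted is not given in the sources used here. From these counts, 13 mitochondrial (mt-) and 101 ribosomal (Rps, Rpl) genes were removed, and then cells under 1000 UMIs, adherent cells under 1250 genes and neurosphere cells under 2250 genes, limits taken from the study's methods. Applying them before the genes were removed would keep 5073 and 4300 cells, and moved no value beyond its counting interval. No doublets were removed. UMIs were summed per library and divided by the UMIs left to give CPM. With 1 library per culture no test was run. Intervals are exact (conditional for log2 ratios, Poisson for CPM, Clopper-Pearson for shares), and PCR and cell sampling are not covered. Poisson counts were simulated for both libraries with 200 of 14654 genes changed. The true log2 ratio lay inside the interval for 96.0% of the changed genes, and all 200 had the right sign. As the intervals are built for such counts, this checks the calculation only and not the spread over cells or cultures.

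Per-cell values used cells thinned to 5000 UMIs, so that 587 adherent cells and 80 neurosphere cells were too shallow to be used. The top and bottom 25% of cells broke ties by cell order. Clusters came from Seurat 5.3.0 (R 4.3.3) with 2000 variable genes, 17 (adherent) or 18 (neurosphere) principal components, at resolution 1.0. Likeness ranked genes with a UMI in at least 5% of thinned cells, on values scaled to 10000 per cell.

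The 10 genes and all lists were chosen with earlier results of these data known, and the promoter elements and their spacing with the windows in view. The text names all 10 genes, in each other pathway list every gene past 2-fold with at least 50 UMIs and the gene with most UMIs, the 5 genes of highest likeness per culture and those in the first 50 of both. Genes named beside these (Ifnb1, Ifng, the markers and cluster leaders, Isg15 and Cxcl10 by cell cycle, and Ckb by likeness) were added after their values were seen. H2-K2, H2-T10, Mx1 and Mx2 were not found by symbol in the files, and Nrdc was matched as Nrd1. Alternatives covered cell filters, thinning, TMM scaling (edgeR 4.0.16), the total, per-cell means and the fold limit. The remaining steps used numpy 2.4.6, pandas 2.3.3, scipy 1.17.1 and matplotlib 3.10.9 in Python 3.11.15.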

Additional observations from a re-analysis of the deposited data

Results flagged for a closer look

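Tap2 was the only one of the 10 class I genes whose level moved in opposite directions in the 2 cultures between the bottom 25% and the top 25% of cells by interferon-list UMIs. In neurosphere cells it was at 18.9 CPM in the bottom and 71.3 CPM in the top cells, a log2 ratio of 1.92 (interval from 1.59), and in adherent cells at 28.1 CPM and 27.4 CPM, a log2 ratio of -0.04 whose interval holds 0. The difference between the cultures was not tested, since each is 1 library. With Isg15 left out of the list, the adherent value was 0.06 and the neurosphere value 1.82, so the directions no longer opposed each other.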

How the results depend on the processing

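No paired analysis was possible because each culture is 1 library, and for the same reason no replicate could be left out. Psmb8 and Psmb10 stayed over 2-fold lower in neurosphere cells under all 10 alternatives at that limit, while Psmb9 ranged from -1.91 to -0.67 on the log2 scale. By UMIs of both libraries together, counts were lowest for Nlrc5, then Tap1 and Psmb9. Classes of 40 or more list UMIs in neurosphere cells rest on 39 cells. The log2 ratio of the summed genes, -0.41 as reported, was -0.38 without cells over the 95th percentile of UMIs, -0.87 without the cells counted as holding 3 or more interferon-list UMIs, -0.26 in the deeper cells that held under 3, -0.30 with thinned cells, -0.62 under TMM, -0.19 when mitochondrial and ribosomal UMIs were counted in the total and -0.31 as a mean of per-cell CPM. TMM moved the median of all genes from 0.32 to 0.11, which put 2354 genes past 2-fold upward and 2128 downward, and the fuller total moved it to 0.54, which put 4325 genes upward and 1375 downward. List UMIs were counted only in cells deep enough to thin, so leaving out those with 3 or more kept 637 adherent cells, of which 587 were shallow cells that had not been counted, and 2148 neurosphere cells. Tap2 was then -0.84 and Tapbp -0.072, with 5 genes over 2-fold lower against 12.4% of all genes, and these values set mostly shallow adherent cells against neurosphere cells low for the list. Among counted cells under 3 list UMIs, a setting added after seeing the data, 50 adherent and 2068 neurosphere cells remained, Tap2 was -0.062 with an interval that holds 0, 2 genes (H2-K1 and Tapbp) were over 2-fold higher and 4 over 2-fold lower against 27.4% and 10.1% of all genes, and the pair shares in adherent and neurosphere cells were 8.47% and 4.98% for Psmb8, 2.48% and 2.21% for Psmb9, and 25.1% and 24.04% for Psmb10. With thinned cells, with the fuller total and with per-cell means, 1 gene, Tapbp, was over 2-fold higher against 22.8%, 29.5% and 21.6% of all genes. Past a limit of 1.5-fold, 2 genes, Tapbp and H2-K1, were higher against 38.2% of all genes. Psmb8, Psmb9, Psmb10 and Nlrc5 were lower past that limit, against 18.3% of all genes. With the uncounted shallow cells kept, the pair shares were 20.6% and 5.10% for Psmb8, 5.41% and 2.25% for Psmb9, and 30.3% and 24.1% for Psmb10. With thinned cells they were 19.02% and 12.3% for Psmb8 and 4.63% and 5.26% for Psmb9, which turned the order of the cultures for Psmb9, and the neurosphere share of Psmb10 was 29.8%. Without cells over the 95th percentile, the neurosphere shares of Psmb8 and Psmb9 were 11.2% and 4.48%, and the adherent share of Psmb10 was 34.9%. Among the other values named, 160 moved beyond their counting interval, 3 reversed and 163 did not, and the cause was not tested. For values of r and shares of all genes, a fixed margin took the place of the counting interval. The 3 that reversed were Tap2 at -0.84 and -0.062 and Tapbp at -0.072.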
